A study of Mus musculus with 8 samples.

Results

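Cytochrome P450 enzymes, encoded by the Cyp genes, were followed through 4 sorted fractions of back-skin keratinocytes from wild type and K14Snail mice. The members are all genes whose platform symbol is Cyp followed by a digit, taken from probe sets with 1 symbol: 87 of the 19938 genes measured. Each gene had 1 probe set. All mice were of the CD1 background and aged 8 weeks, and each array held RNA from a pool of males and females, 11 mice per pool for the CD34 sort and 9 for the Mts24 sort. K14Snail mice carry the transcription factor Snail under the keratin 14 promoter, which is active in basal keratinocytes. The 8 groups, with 1 Affymetrix array each, were keratinocytes negative or positive for CD34 and keratinocytes negative or positive for Mts24, from wild type and from K14Snail mice. CD34 marks cells of the follicle bulge, and the Mts24 antibody binds the Plet1 product of the upper follicle. Cells were separated with magnets, and negative cells serve as controls for the positive cells of that sort.

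P450 enzymes are haem-containing monooxygenases that insert an oxygen atom into lipophilic substrates, with electrons supplied by redox partner proteins. In skin they act on foreign compounds that reach the surface, on retinoic acid and vitamin D, on sterols and steroids, and on the fatty acids of the permeability barrier and of sebum. Families numbered with low digits are known mostly for metabolism of foreign compounds, the Cyp4 family for hydroxylation of fatty acids at the chain end, and the higher families for endogenous sterols, steroids and vitamins.

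Values are log2 levels per probe set, and a difference of 1 is a change of 2-fold. In the CD34 sort, Cd34 was at 6.12 and 6.27 in negative and at 13.57 and 13.29 in positive cells. In the Mts24 sort it was at 10.03 and 10.51 in negative and at 12.12 and 11.56 in positive cells, a rise of 1.57 ± 0.24 (limma adjusted p = 0.00927). All 7 bulge markers rose in both sorts (medians 2.38 and 1.43), and their mean was 8.75 to 9.79 in negative and 10.94 to 12.28 in positive fractions. The 6 upper follicle markers rose with Mts24 and 0 of 6 passed with CD34. Plet1 was between 9.16 and 9.91 in Mts24 negative and between 12.64 and 12.88 in Mts24 positive arrays, and Snai1 was between 7.86 and 8.16 in wild type and between 10.84 and 11.04 in K14Snail arrays. Krt5 and Krt14, the keratins of basal keratinocytes, were between 13.28 and 13.87 on all 8 arrays. The positive fractions held less signal of some other cells: 4 of 4 tested T cell markers fell in both sorts, and the mean log2 level of the 5 T cell markers measured was 9.02 to 9.81 in negative and 6.90 to 7.76 in positive fractions. The mean of 8 myeloid and Langerhans markers was 9.12 to 9.77 in negative fractions. In CD34 and Mts24 positive fractions it was 7.81 and 7.71 in wild type and 9.32 and 9.33 in K14Snail cells. Of 4 tested melanocyte markers Mitf rose in both sorts, while 3 did not pass with CD34 and 3 fell with Mts24. Of 3 tested fibroblast markers Col1a2 rose with CD34 and 0 passed with Mts24. Endothelial markers (5 measured) and adipocyte markers (3 measured) did not reach the filter level on 2 arrays. With pools of cells, fewer cells of a type and less RNA per cell cannot be told apart.

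Genes entered the tests with 2 or more arrays at 7.70 or above, which is the median over all genes and arrays. This kept 23 of the 87 members (26.4%) and 10720 of all genes (53.8%). Of the 44 members of the Cyp2 family (vitamin D hydroxylase Cyp2r1 counted apart) 9 were tested, of 16 Cyp4 genes 5, of 6 Cyp3 genes 1 and of 3 Cyp1 genes 1. Among the genes for endogenous substrates 3 of 7 sterol and bile acid enzymes, 1 of 5 steroid hormone enzymes, 1 of 2 vitamin D activating enzymes and 1 of 3 retinoic acid clearing enzymes were tested, as was the orphan enzyme Cyp20a1. Of the 64 members not tested, 63 had no array at the filter level and Cyp2b23 had 1. The retinoic acid hydroxylases Cyp26a1 and Cyp26c1, the dioxin-inducible Cyp1a1 and Cyp1a2, and Cyp27b1, which completes vitamin D activation, were among them: their log2 values were 5.76 to 5.92, 6.60 to 7.13, 5.94 to 6.91, 5.11 to 5.42 and 6.47 to 7.69. The arrays give no measure of background here, so these values do not show that a gene was silent. Levels of different probe sets depend on their probes and are not compared between genes.

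**Figure D1:**
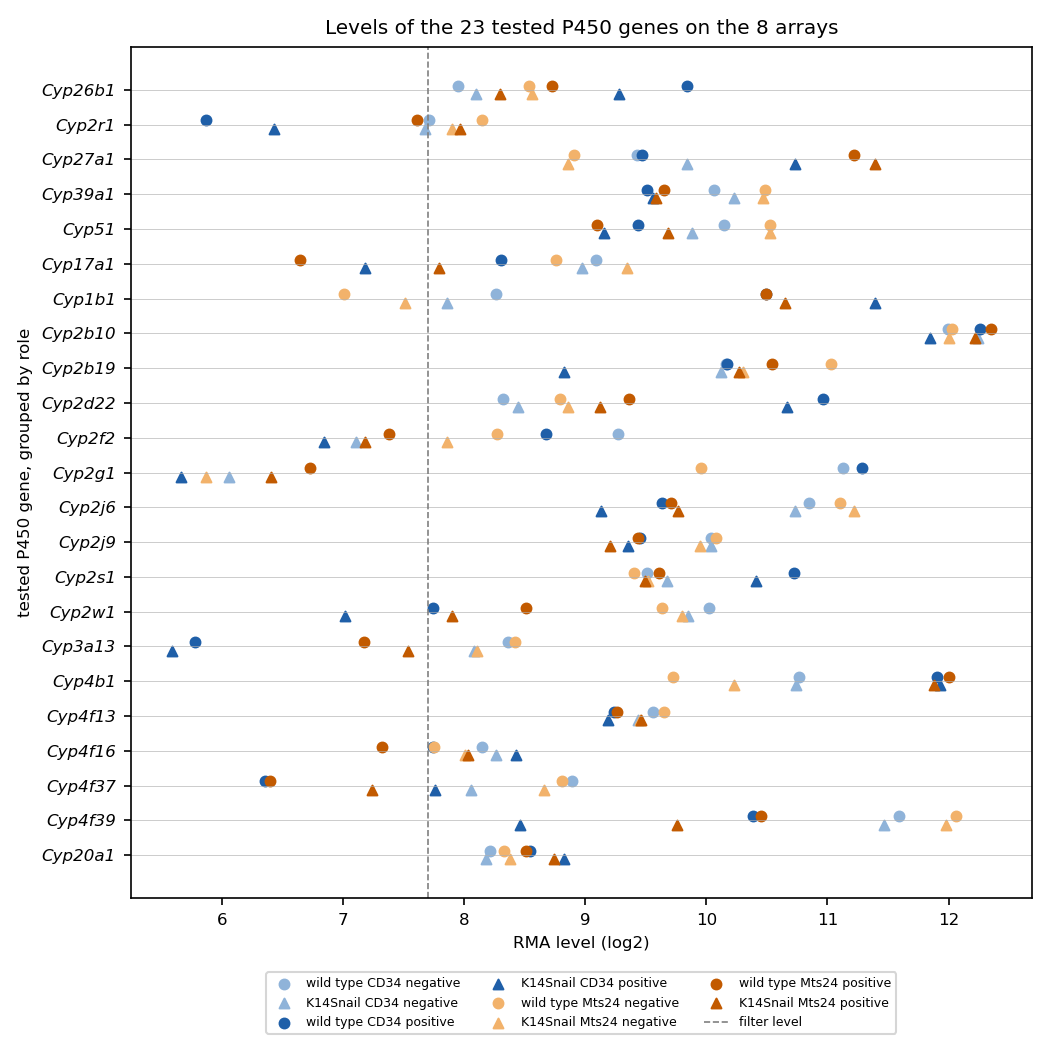
Log2 level of each of the 23 tested P450 genes (rows, grouped by role) on the 8 arrays; circles are wild type and triangles K14Snail arrays, blue the CD34 sort and orange the Mts24 sort, with darker shades for positive fractions, and the dashed line marks the filter level of 7.70. Cyp1b1 and Cyp4b1 lie to the right in both positive fractions, Cyp2d22 and Cyp26b1 in CD34 positive arrays only, and the 4 K14Snail points of Cyp2g1 lie left of all wild type points.

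In the sort for CD34, 13 of the 23 tested members passed limma at an adjusted p under 0.05, 6 higher and 7 lower in the positive fraction, against 26.8% of all tested genes. In the sort for Mts24, 12 passed, 3 higher and 9 lower, against a background of 26.3%. Without either Mts24 negative array fewer members passed for Mts24, and fewer of all tested genes did too. A member that is bright only in 1 fraction passes the filter through that fraction, so these shares are not read as a property of the family. With no filter, 14 of all 87 members (16.1%) passed for CD34 against 14.8% of all genes, and 11 (12.6%) for Mts24 against 13.5%. The shares over the whole family were thus near the background. Each difference rests on 2 pairs of arrays, 1 per genotype, so the p-values measure the spread between these arrays. Both sorts called 8 members, which is 8 of the 13 for CD34 and 8 of the 12 for Mts24, and no member was called in opposite directions. The share of all tested genes called in both sorts was not counted, so this overlap is not read as a property of the family.

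Cyp1b1 and Cyp4b1 were the members that rose in both positive fractions. Cyp1b1 is an extrahepatic enzyme of the aryl hydrocarbon receptor pathway that hydroxylates oestradiol and aromatic hydrocarbons. Its log2 level was 8.26 in CD34 negative and 10.49 in CD34 positive wild type cells, and 7.86 and 11.39 in K14Snail cells. In the Mts24 sort it was 7.01 in negative and 10.49 in positive wild type cells, and 7.51 and 10.65 in K14Snail cells. All 4 positive arrays thus lay above all 4 negative arrays. The rise was 2.88 ± 0.29 for CD34 (7.37-fold, limma adjusted p = 0.00173) and 3.31 ± 0.29 for Mts24 (9.93-fold, adjusted p = 0.00226), each in 2 of 2 pairs, where ± is limma's standard error throughout. The Mts24 negative arrays lay under the filter level, so the size of that difference depends on the background.

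Cyp4b1, a monooxygenase of fatty acids and foreign compounds found outside the liver, was at 10.76 and 10.74 in the CD34 negative and at 11.90 and 11.93 in the CD34 positive arrays of wild type and K14Snail mice. It was at 9.72 and 10.23 in Mts24 negative and at 12.01 and 11.88 in Mts24 positive arrays. The rises of 1.16 ± 0.16 (adjusted p = 0.00481) and 1.96 ± 0.16 (3.90-fold, adjusted p = 0.00191) left all 4 positive arrays between 11.88 and 12.01. The 7 bulge markers rose with both genes, and their part in these rises was not tested. For neither gene did the difference between the sorts pass (Cyp1b1 -0.43 ± 0.41, adjusted p = 0.644; Cyp4b1 -0.80 ± 0.23, adjusted p = 0.126).

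The RefSeq windows from 250 bases before to 50 after the transcription start (assembly GRCm38.p6) of these 2 genes are shown because they rose in both sorts. Capitals mark any match, on either strand, to 3 short motifs searched in all windows: CAGGTG, the E-box that Snail proteins bind, GCGTG, the core that the aryl hydrocarbon receptor binds, and AGGTCA, a half-site of nuclear receptors. Matches of different motifs did not overlap in the windows shown. Cyp1b1 (chr17:79715012-79715311, minus strand) and Cyp4b1 (chr4:115647672-115647971, minus strand) read:
Cyp1b1: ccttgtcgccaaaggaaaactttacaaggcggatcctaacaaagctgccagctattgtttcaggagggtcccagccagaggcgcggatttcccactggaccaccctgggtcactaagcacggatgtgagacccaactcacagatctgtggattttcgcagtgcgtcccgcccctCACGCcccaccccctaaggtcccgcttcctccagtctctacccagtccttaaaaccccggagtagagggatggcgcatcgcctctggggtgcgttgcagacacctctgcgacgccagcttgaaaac
Cyp4b1: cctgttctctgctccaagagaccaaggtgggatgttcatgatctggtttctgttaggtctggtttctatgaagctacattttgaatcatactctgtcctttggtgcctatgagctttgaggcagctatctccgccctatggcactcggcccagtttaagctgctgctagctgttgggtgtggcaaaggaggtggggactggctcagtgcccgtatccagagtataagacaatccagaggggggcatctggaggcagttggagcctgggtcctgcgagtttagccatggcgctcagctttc
The Cyp1b1 window held 1 GCGTG match, on the opposite strand at position -76 from the start, and the Cyp4b1 window held no match. Windows for 64 of the 87 members were matched by symbol. GCGTG occurred in 16 of them (25%) and in 32.5% of the windows of all 27025 genes, CAGGTG in 16 (25%) against 20%, and AGGTCA in 15 (23.4%) against 16%. A match is a description of the sequence and not of binding.

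Of the genes around the aryl hydrocarbon receptor, from a list of 10 of which 7 were measured and 6 tested, 2 rose in Mts24 positive cells, the quinone reductase Nqo1 (2.38 ± 0.16, adjusted p = 0.00132) and the aldehyde dehydrogenase Aldh3a1 (1.91 ± 0.28, adjusted p = 0.00832), and 0 fell. In CD34 positive cells Nqo1 rose by 1.58 ± 0.16 (adjusted p = 0.00179) and the receptor gene Ahr fell (-1.14 ± 0.23, adjusted p = 0.0167). The list's medians were -0.04 for CD34 and 0.40 for Mts24, beside -0.03 and 0.02 over all tested genes. Of all tested genes 26.8% passed for CD34 and 26.3% for Mts24.

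Cyp2d22, Cyp26b1, Cyp2s1 and Cyp20a1 rose in CD34 positive cells and did not pass for Mts24. Cyp2d22, a mouse Cyp2d enzyme, was at 8.32 and 8.44 in CD34 negative and at 10.97 and 10.66 in CD34 positive arrays of wild type and K14Snail mice. In the Mts24 sort it was at 8.79 and 8.86 in negative and at 9.36 and 9.12 in positive arrays. Only the CD34 positive arrays exceeded 10. It rose by 2.43 ± 0.13 with CD34 (5.39-fold, adjusted p = 0.000311), its Mts24 difference was 0.42 ± 0.13 (adjusted p = 0.0685), and the difference between the sorts was 2.01 ± 0.19 (adjusted p = 0.00832). The 9 other members of the Cyp2d group on chromosome 15, 2 of them annotated as pseudogenes, were not tested, and their means over the arrays were 4.55 to 7.14.

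Cyp26b1, which clears retinoic acid, was also highest in the CD34 positive arrays. It was at 7.95 and 8.10 in CD34 negative and at 9.84 and 9.28 in CD34 positive arrays of wild type and K14Snail mice. In Mts24 negative arrays it was at 8.54 and 8.56, and in Mts24 positive arrays at 8.73 and 8.30, so the Mts24 fractions overlapped. Its rise with CD34 was 1.54 ± 0.19 (2.90-fold, adjusted p = 0.00327), against -0.04 ± 0.19 with Mts24 (adjusted p = 0.912), and the difference between the sorts passed at 1.57 ± 0.27 (adjusted p = 0.0345). That call held in 9 of 16 alternatives (adjusted p 0.0167 to 0.15), and all those that lost it had 1 array left out. Its promoter window, shown because the gene differed between the sorts, lies at chr6:84593761-84594060 on the minus strand and held none of the 3 motifs.
Cyp26b1: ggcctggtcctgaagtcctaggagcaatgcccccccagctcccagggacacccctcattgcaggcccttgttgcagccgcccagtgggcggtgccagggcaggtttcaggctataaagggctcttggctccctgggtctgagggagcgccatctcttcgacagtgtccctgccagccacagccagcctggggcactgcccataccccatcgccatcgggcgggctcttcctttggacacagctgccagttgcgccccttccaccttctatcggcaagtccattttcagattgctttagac
Of 26 retinoid pathway genes measured 16 were tested, and 1 rose and 3 fell in each sort, a share near the 26.8% and 26.3% of all tested genes. The retinoic acid binding protein Crabp1 rose with CD34 (1.51 ± 0.12, adjusted p = 0.000754) and the retinol transporter Stra6 with Mts24 (2.82 ± 0.42, adjusted p = 0.00832). The retinal reductase Dhrs3 and the retinol dehydrogenase Rdh1 fell in both sorts, Dhrs3 with differences of -0.45 ± 0.09 (adjusted p = 0.0159) and -0.44 ± 0.09 (adjusted p = 0.0199).

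Cyp2s1, an extrahepatic enzyme expressed in epithelia, rose by 0.98 ± 0.13 with CD34 (adjusted p = 0.00476), from 9.51 and 9.68 to 10.72 and 10.41. Cyp20a1, whose substrate is not settled, rose by 0.49 ± 0.11 (adjusted p = 0.0227). The call held in 13 of 16 alternatives (adjusted p 0.0215 to 0.148) and was lost without either CD34 negative array or the K14Snail CD34 positive array, and its 8 values spanned only 8.18 to 8.83.

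Cyp27a1 rose with Mts24 and did not pass for CD34. It encodes a mitochondrial sterol side-chain hydroxylase that starts the acidic route of bile acid synthesis. Its level was 8.91 and 8.85 in Mts24 negative and 11.22 and 11.39 in Mts24 positive arrays of wild type and K14Snail mice, and 9.42 and 9.84 in CD34 negative against 9.46 and 10.73 in CD34 positive arrays. The rise with Mts24 was 2.42 ± 0.30 (5.36-fold, adjusted p = 0.00536), in 2 of 2 pairs and with an adjusted p of 0.000722 to 0.0458 over 16 alternatives. With CD34 the difference was 0.04 in wild type and 0.89 in K14Snail cells (0.46 ± 0.30, adjusted p = 0.326). The CD34 difference was 1.01 without the wild type CD34 positive array. The difference between the sorts, -1.96 ± 0.43, did not pass (adjusted p = 0.0686). Its promoter window, shown as that of the member with the second largest rise in the Mts24 sort, lies at chr1:74713285-74713584 on the plus strand and held none of the 3 motifs.
Cyp27a1: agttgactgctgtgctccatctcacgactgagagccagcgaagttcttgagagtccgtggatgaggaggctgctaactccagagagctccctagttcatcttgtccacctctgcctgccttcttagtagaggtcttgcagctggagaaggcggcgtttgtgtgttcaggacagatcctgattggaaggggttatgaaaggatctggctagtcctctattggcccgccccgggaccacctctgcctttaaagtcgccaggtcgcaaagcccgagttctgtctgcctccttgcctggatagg

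The other tested sterol enzymes moved the other way. Cyp51, the lanosterol demethylase of cholesterol synthesis, was at 10.53 in both Mts24 negative arrays and at 9.10 and 9.68 in the Mts24 positive arrays of wild type and K14Snail mice, a difference of -1.14 ± 0.22 (2.20-fold, adjusted p = 0.0170). The call held in 14 of 16 alternatives (adjusted p 0.0134 to 0.0999), being lost without either Mts24 negative array, and the difference was -0.76 without the wild type Mts24 positive array. With CD34 its difference of -0.71 ± 0.22 did not pass (adjusted p = 0.0618). Of the other 19 cholesterol synthesis genes tested, 16 fell and 0 rose with Mts24 (median -0.94), and 7 fell and 0 rose with CD34 (median -0.35), where 13.5% and 13.4% of all tested genes fell. The largest falls with Mts24 were in squalene epoxidase Sqle (-1.545 ± 0.20, adjusted p = 0.00591), the sterol desaturase Sc5d (-1.29 ± 0.17) and the sterol reductase Dhcr7 (-1.16 ± 0.14). Cyp39a1, an oxysterol hydroxylase, fell in both sorts (-0.61 ± 0.09 with CD34, adjusted p = 0.006105, and -0.86 ± 0.09 with Mts24, adjusted p = 0.00335), the first in 15 of 16 alternatives (lost without the K14Snail CD34 negative array): its negative arrays were at 10.06 to 10.48 and its positive arrays at 9.51 to 9.65, with no overlap. Cyp17a1, which makes androgen precursors, was at 8.76 and 9.34 in Mts24 negative and at 6.65 and 7.79 in Mts24 positive arrays. Its difference of -1.83 ± 0.50 passed narrowly (adjusted p = 0.0466) and held in 7 of 16 alternatives (adjusted p 0.00872 to 0.243).

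Of 8 members that passed in both sorts, 6 fell. Cyp4f39 hydroxylates the ultra-long fatty acids of the acylceramides that form the skin barrier. It was at 11.59 and 11.47 in CD34 negative and at 10.39 and 8.46 in CD34 positive arrays of wild type and K14Snail mice. In Mts24 negative arrays it was at 12.06 and 11.98, and in Mts24 positive arrays at 10.45 and 9.76. All positive arrays lay below all negative arrays. The differences were -2.10 ± 0.44 for CD34 (4.29-fold, adjusted p = 0.0199) and -1.92 ± 0.44 for Mts24 (3.79-fold, adjusted p = 0.0285), and the calls held in 14 and 12 of 16 alternatives (adjusted p 0.0013 to 0.1295 and 0.00195 to 0.176). Of 26 tested eicosanoid and acylceramide genes, 4 rose and 6 fell with CD34 (median -0.72), and 2 rose and 9 fell with Mts24 (median -1.02). Over all tested genes 26.8% passed for CD34 and 26.3% for Mts24. Among the eicosanoid and acylceramide genes the lipid transporter Abca12 fell in both sorts (-1.83 ± 0.31, adjusted p = 0.00961, and -1.30 ± 0.31, adjusted p = 0.0314), as did the lipoxygenase Alox12 (-2.08 ± 0.40, adjusted p = 0.01505, and -3.30 ± 0.40, adjusted p = 0.00501). Ephx1 rose in both (1.21 ± 0.19, adjusted p = 0.00798, and 1.16 ± 0.19, adjusted p = 0.0117). Ephx2 did too (0.68 ± 0.11, adjusted p = 0.00751, and 1.96 ± 0.11, adjusted p = 0.000952). Alox8 rose with CD34 (2.26 ± 0.12, adjusted p = 0.000291) and fell with Mts24 (-0.47 ± 0.12, adjusted p = 0.0381). Markers of suprabasal cells, where the barrier lipids are made, had means of 12.59 to 13.06 in negative and 11.07 to 12.43 in positive arrays (6 of 6 measured and tested, 2 fell with CD34 and 0 passed with Mts24). Their part in the falls was not tested.

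Cyp2w1, an enzyme expressed mainly outside the adult liver, was at 10.02 and 9.85 in CD34 negative and at 7.74 and 7.02 in CD34 positive arrays of wild type and K14Snail mice, and at 9.64 and 9.80 in Mts24 negative and at 8.51 and 7.90 in Mts24 positive arrays. It fell in both sorts (-2.55 ± 0.22, 5.87-fold, adjusted p = 0.001099, and -1.51 ± 0.22, adjusted p = 0.00805), the second in 15 of 16 alternatives (lost without the K14Snail Mts24 positive array). Cyp2j6 and Cyp2j9, of the Cyp2j group known for epoxidation of arachidonic acid, fell in both sorts: Cyp2j6 differed by -1.41 ± 0.16 (adjusted p = 0.00256) with CD34 and -1.42 ± 0.16 (adjusted p = 0.00389) with Mts24, and Cyp2j9 by -0.64 ± 0.09 (adjusted p = 0.00509) and -0.69 ± 0.09 (adjusted p = 0.005902, lost at 0.05145 without the wild type Mts24 negative array). The other Cyp2j genes of chromosome 4 (Cyp2j5, Cyp2j11, Cyp2j12 and Cyp2j13) were not tested.

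Cyp3a13, the only Cyp3 gene tested, fell in both sorts and by more with CD34. It was at 8.36 and 8.08 in CD34 negative and at 5.78 and 5.58 in CD34 positive arrays, and at 8.42 and 8.11 in Mts24 negative and at 7.17 and 7.53 in Mts24 positive arrays of wild type and K14Snail mice. The differences were -2.54 ± 0.18 (adjusted p = 0.000574) and -0.91 ± 0.18 (adjusted p = 0.0179). The second was lost without either Mts24 negative array (adjusted p = 0.114 and 0.0689) and was -0.60 without the wild type Mts24 positive array. The difference between the sorts was -1.63 ± 0.25 (adjusted p = 0.0275), and all positive arrays lay under 7.70, so its size depends on the background. Its window, shown because the gene differed between the sorts, lies at chr5:137921570-137921869 on the minus strand and held 1 E-box match, on the opposite strand at position -246 from the start.
Cyp3a13: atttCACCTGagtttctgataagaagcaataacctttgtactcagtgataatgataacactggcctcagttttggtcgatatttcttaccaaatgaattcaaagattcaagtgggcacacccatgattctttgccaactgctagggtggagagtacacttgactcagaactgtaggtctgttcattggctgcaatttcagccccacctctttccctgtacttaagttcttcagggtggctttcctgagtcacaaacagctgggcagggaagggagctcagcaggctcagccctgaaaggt
Cyp2r1, which carries out the first hydroxylation of vitamin D, fell with CD34 (-1.55 ± 0.20, adjusted p = 0.00389), from 7.71 and 7.68 to 5.87 and 6.43, and did not pass with Mts24 (-0.23 ± 0.20, adjusted p = 0.442), where the values were 7.61 to 8.14. Its CD34 negative arrays lay near 7.70 and its CD34 positive arrays under it, so the size of the fall depends on the background. Of 5 tested vitamin D pathway genes, 1 rose and 1 fell with CD34, and 1 rose and 2 fell with Mts24. The shares of all tested genes that passed were 26.8% and 26.3%. The vitamin D receptor gene Vdr rose in both sorts, by 0.94 ± 0.10 (adjusted p = 0.001805) and 1.499 ± 0.10 (adjusted p = 0.00118). Trpv6 fell in both (-0.70 ± 0.15, adjusted p = 0.0209, and -0.58 ± 0.15, adjusted p = 0.0396), and Dhcr7 fell with Mts24 (-1.16 ± 0.14, adjusted p = 0.0044). Cyp4f37, of the Cyp4f group on chromosome 17, fell with Mts24 (-1.92 ± 0.52, adjusted p = 0.0440), from 8.81 and 8.66 to 6.40 and 7.24. This call held in 11 of 16 alternatives (adjusted p 0.01745 to 0.21). Both Mts24 positive arrays of Cyp4f37 lay under 7.70, so the size of its fall depends on the background.

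**Figure D2:**
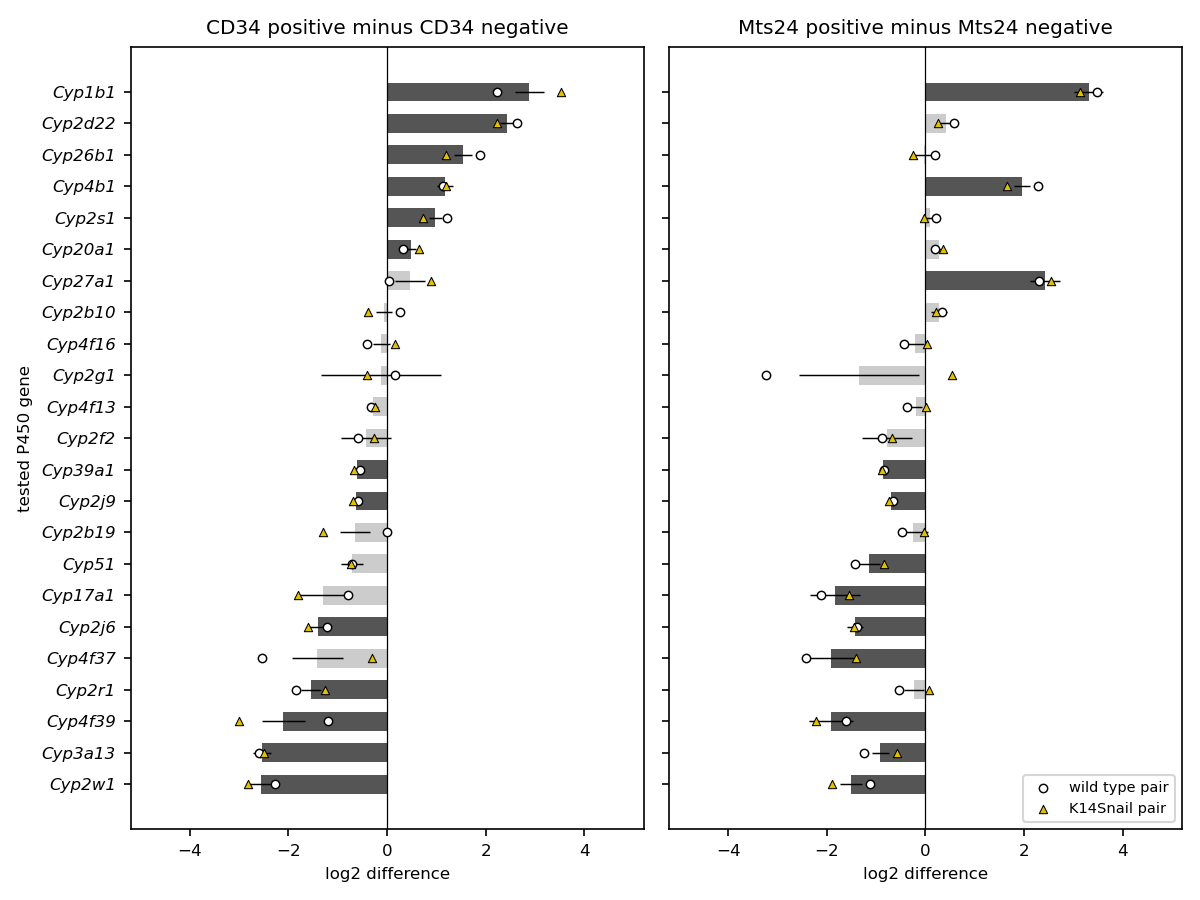
Log2 difference between positive and negative fraction for the 23 tested P450 genes in the CD34 sort (left) and the Mts24 sort (right); bars are the mean of both genotypes with limma's standard error, dark where adjusted p was under 0.05, circles the wild type pair and triangles the K14Snail pair. Cyp1b1 and Cyp4b1 rise in both panels, Cyp2d22 (2.43 against 0.42) and Cyp26b1 (1.54 against -0.04) in the left panel, and Cyp27a1 (2.42) in the right one.

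The 2 positive fractions were also compared directly, although they come from different pools, so marker and pool cannot be told apart. Of the 23 tested members 5 passed, against 13.1% of all tested genes: Cyp2d22 (1.57 ± 0.13, adjusted p = 0.00357), Cyp26b1 (1.05 ± 0.19, adjusted p = 0.0232) and Cyp2s1 (1.02 ± 0.13, adjusted p = 0.0100) were higher in CD34 positive cells (8.44% of all tested genes were), and Cyp3a13 (-1.67 ± 0.18, adjusted p = 0.00594) and Cyp2r1 (-1.64 ± 0.20, adjusted p = 0.00809) were lower (4.69%). Without the filter 5 of all 87 members passed (5.75%), against 6.64% of all genes, so the share among tested members is not read as a property of the family. The CD34 positive arrays of Cyp3a13 and Cyp2r1 lay under 7.70, so the size of their differences depends on the background. Without either Mts24 positive array fewer of all tested genes passed. Cyp26b1 and Cyp2s1 lost their calls in both cases and Cyp2r1 without the K14Snail one. The difference of Cyp2g1 was 4.21 without the K14Snail one. Cyp26b1 also lost its call without the wild type CD34 positive array. The test of the difference between the sorts passed for 3 of 23 members, Cyp2d22, Cyp26b1 and Cyp3a13, against 4.74% of all tested genes (2.69% with a larger and 2.05% with a smaller CD34 difference), and without the filter for 3 of 87 (3.45%), against 2.68% of all genes. More members passed without the K14Snail CD34 positive array, and fewer without any negative array of either sort. The number of all tested genes that passed moved in the same directions in these fits. Of 7 tested genes listed as redox partners, 2 rose and 3 fell with CD34 and 0 rose and 2 fell with Mts24. Over all tested genes the shares that passed were 26.8% and 26.3%. With CD34 Cyb5r4 (-0.68 ± 0.10, adjusted p = 0.00557) and cytochrome b5 (Cyb5a, -0.62 ± 0.12, adjusted p = 0.01305) fell, and Cyb5r1 rose (0.66 ± 0.09, adjusted p = 0.00513). Cyb5r4 also fell with Mts24 (-0.91 ± 0.10, adjusted p = 0.0036).

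K14Snail and wild type cells were compared over the 4 fractions. None of the 23 tested members passed for genotype with limma, where 0.382% of all tested genes did. An unadjusted p under 0.05 was found for 4 members and for 2175 of all 10720 tested genes. With the pool as a random block the number of members called was again 0, as in all other alternatives. That fit gave an unadjusted p under 0.05 for 6 members and for 2774 of all 10720 tested genes. The olfactory enzyme Cyp2g1, best known from nasal mucosa, had the largest difference of the tested members. In wild type cells its log2 level was 11.13 and 11.29 in the negative and positive fractions of the CD34 sort, and 9.95 and 6.73 in those of the Mts24 sort. In K14Snail cells it was 6.06, 5.66, 5.87 and 6.41 in the same order. The genotypes did not overlap: the 4 K14Snail arrays lay under the lowest wild type array, that of Mts24 positive cells. The pairs differed by -5.07, -5.63, -4.08 and -0.32, with a mean of -3.78 ± 0.86 (unadjusted p = 0.005225, adjusted p = 0.124). The size depends on the background, because all K14Snail arrays lay under 7.70. Over 17 alternatives the adjusted p was 0.0709 to 0.362. Without either Mts24 positive array the mean of the other 3 pairs was -4.93.

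Cyp2f2, known from the club cells of the airway, had the next largest difference. In the same order its wild type levels were 9.27, 8.68, 8.27 and 7.38, and its K14Snail levels 7.11, 6.85, 7.86 and 7.18. The genotypes overlapped in this gene, and the pairs differed by -2.16, -1.83, -0.41 and -0.21 (mean -1.15 ± 0.36, adjusted p = 0.187). Cyp2b19, an arachidonic acid epoxygenase of keratinocytes, was at 10.16, 10.17, 11.03 and 10.55 in wild type and at 10.12, 8.82, 10.30 and 10.27 in K14Snail cells (mean -0.60 ± 0.21, adjusted p = 0.213). Its lowest value was that of the K14Snail CD34 positive array. Among members with a higher K14Snail mean, Cyp4f16 was at 0.44 ± 0.12 (adjusted p = 0.156) and higher in 4 of 4 pairs, and Cyp27a1 at 0.45 ± 0.22 (adjusted p = 0.293).

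Cyp2g1, Cyp2f2 and Cyp2b19 lie close together on chromosome 7. In the order of RefSeq (GRCm38.p6), Cyp2b19 is the next protein-coding gene before Cyp2g1 and Cyp2b23 the one before that, while Cyp2f2 follows 4 places after. Within 20 protein-coding genes on either side 11 members were measured and 5 tested. The other tested members there were Cyp2s1, 12 places before (-0.03 ± 0.10, adjusted p = 0.8565), and Cyp2b10, 11 places before (-0.08 ± 0.11, adjusted p = 0.703). Cyp2b10, known for its induction by xenobiotics in liver, was between 11.84 and 12.35 on all 8 arrays. The 19 other tested genes of that stretch had genotype differences between -0.14 and 0.32. Cyp2b23, not tested, was between 6.96 and 7.95 in wild type and between 6.27 and 6.69 in K14Snail arrays, without overlap. Close paralogues such as these can share probe signal, so their values are uncertain. A promoter window for Cyp2g1 was not found in the table used here. Those of Cyp2b19 (chr7:26756892-26757191, plus strand) and Cyp2f2 (chr7:27119705-27120004, plus strand) are shown as those of the tested members nearest to it in gene order:
Cyp2b19: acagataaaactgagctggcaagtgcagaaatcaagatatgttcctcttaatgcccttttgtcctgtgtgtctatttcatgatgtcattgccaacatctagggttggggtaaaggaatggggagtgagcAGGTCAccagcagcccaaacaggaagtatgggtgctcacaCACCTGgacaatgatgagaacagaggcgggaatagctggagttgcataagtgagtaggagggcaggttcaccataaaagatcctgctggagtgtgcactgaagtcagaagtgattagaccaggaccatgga
Cyp2f2: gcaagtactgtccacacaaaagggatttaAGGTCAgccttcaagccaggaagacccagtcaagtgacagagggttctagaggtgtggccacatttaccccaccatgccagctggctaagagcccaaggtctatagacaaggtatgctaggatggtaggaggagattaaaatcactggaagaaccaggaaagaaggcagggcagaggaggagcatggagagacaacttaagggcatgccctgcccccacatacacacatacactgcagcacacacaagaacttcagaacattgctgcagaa
The Cyp2b19 window held 1 E-box match, on the opposite strand at position -81 from the start, and 1 AGGTCA match at -121, and the Cyp2f2 window 1 AGGTCA match at -221 and no E-box.

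**Figure D3:**
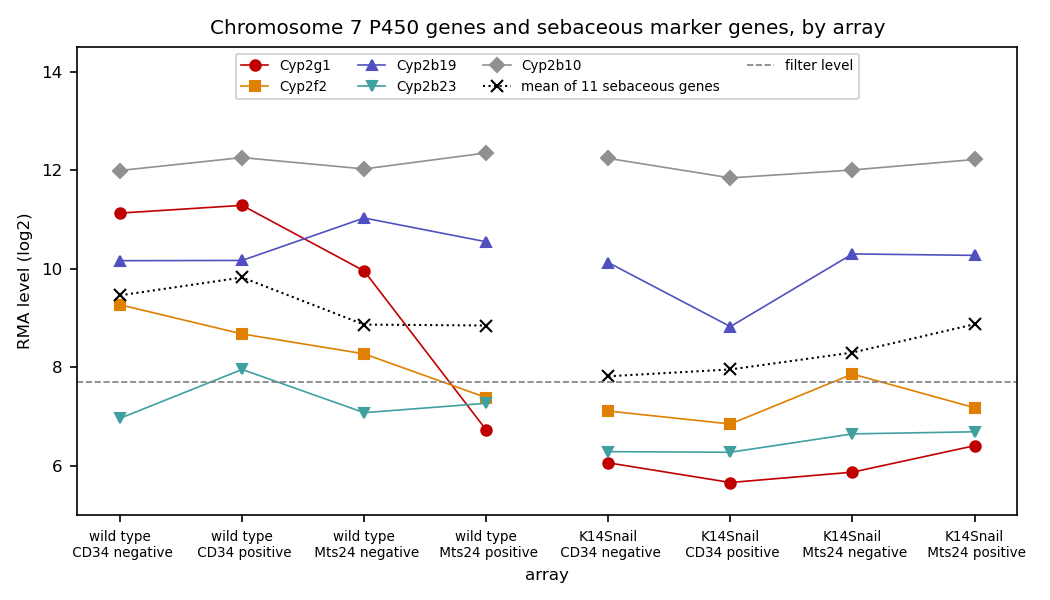
Log2 level of Cyp2g1, Cyp2f2, Cyp2b19, Cyp2b23 and Cyp2b10, P450 genes of 1 stretch of chromosome 7, and mean log2 level of 11 sebaceous gland marker genes (dotted), on each of the 8 arrays; lines join arrays of a genotype only to guide the eye, and the dashed line is the filter level of 7.70. Cyp2g1 is at 9.95 to 11.29 in 3 wild type arrays and at most 6.73 elsewhere, while Cyp2b10 stays between 11.84 and 12.35.

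Sebaceous gland markers also had lower means in 3 of the 4 K14Snail fractions. The mean of the 11 measured was 9.46, 9.82, 8.86 and 8.85 in wild type cells and 7.82, 7.95, 8.30 and 8.87 in K14Snail cells, again in that order. Of the 10 tested, 0 passed for genotype (median -1.09, beside 0.025 over all tested genes), and Awat2 did not pass the filter. The sebaceous hydroxylase Fa2h was at -2.29 ± 0.53 (adjusted p = 0.125) and the fatty acyl reductase Far2 at -2.17 ± 0.55 (adjusted p = 0.141). Scd3, Elovl3, Mc5r and Cidea were at -2.26, -1.60, -1.28 and -0.90. Other markers differed less: Scd1, Mgst1 and Pparg were at -0.35, -0.25 and -0.14, and Plin2 was higher in K14Snail, at 0.31. The steroid dehydrogenase Hsd3b6 was at 9.41, 9.62, 8.52 and 7.42 in wild type and at 6.38, 6.29, 7.41 and 7.42 in K14Snail cells. The part of sebaceous cells in the Cyp2g1 and Cyp2f2 values was not tested. Of the steroid metabolism genes (11 tested, median -0.15) and the cholesterol synthesis genes (19 tested, median -0.08), 0 passed for genotype.

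Over all 87 members, tested or not, 7 had all K14Snail arrays below all wild type arrays (8.05%, against 2.36% of all 19938 genes) and 0 had them above (against 1.2%). Beside Cyp2g1 these were Cyp2b23, Cyp2c37, Cyp2j12, Cyp3a57, Cyp2ab1 and Cyp11a1, and of those Cyp2b23 alone reached the filter level, on 1 array. Cyp2j12 was between 5.49 and 7.27 in wild type and between 5.22 and 5.37 in K14Snail arrays, and Cyp3a57 between 5.07 and 6.56 and between 4.59 and 4.80. Their brightest arrays were those of wild type CD34 positive cells. In Cyp11a1 the closest arrays of the genotypes were at 5.45 and 5.44, in Cyp2ab1 at 5.64 and 5.58 and in Cyp2c37 at 6.44 and 6.39. Over the 23 tested members 1 did not overlap, 4.35% against 1.25% of all tested genes, and 0 lay above in K14Snail, against 1.64%. The 1 member, Cyp2g1, passed the filter through 3 wild type arrays alone, so this share is not read as a property of the family.

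Single fractions have 1 array per genotype and no replicate check. By at least 2-fold, 7 tested members differed between the CD34 positive arrays (against 4.94% of tested genes), 2 between the CD34 negative (0.858%), 1 between the Mts24 negative (0.737%) and 1 between the Mts24 positive arrays (1.91%). Here too Cyp2g1 had passed the filter through wild type arrays alone. The tested members also spanned more over the 8 arrays (median range 2.27) than all tested genes did (0.58). For these reasons, and with 1 array per genotype, the counts are not read as a property of the family. In CD34 positive cells Cyp2g1, Cyp4f39 (-1.92), Cyp2f2, Cyp2b19 (-1.34) and Cyp17a1 (-1.13) were lower in K14Snail, and Cyp4f37 (1.40) and Cyp27a1 (1.27) higher. In the same pair the mean level of suprabasal markers was 12.20 in wild type and 11.07 in K14Snail cells, and that of myeloid and Langerhans markers 7.81 and 9.32; their part was not tested. In CD34 negative cells the members were Cyp2g1 and Cyp2f2, in Mts24 negative cells Cyp2g1, and in Mts24 positive cells Cyp17a1, which was higher in K14Snail by 1.14. Cyp17a1 thus stood in opposite directions in the 2 positive fractions, a difference that was not tested for this gene alone.

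**Figure D4:**
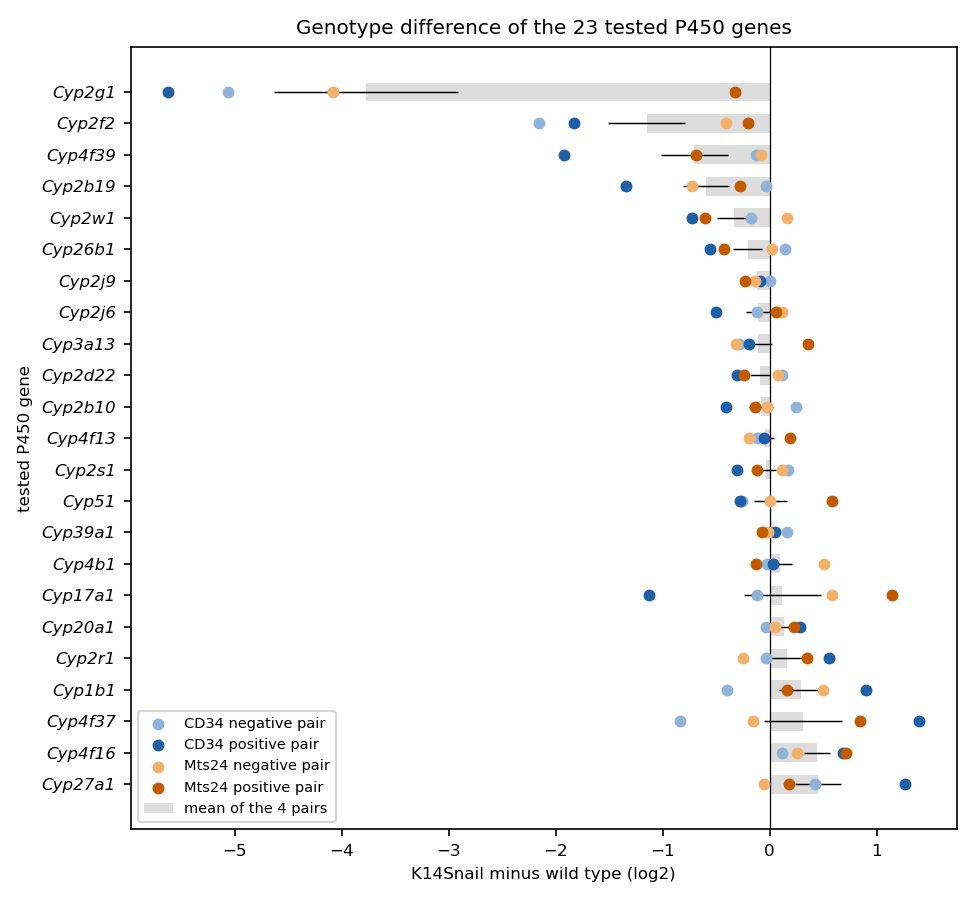
K14Snail minus wild type on the log2 scale for the 23 tested P450 genes; grey bars are the mean of the 4 fraction pairs with limma's standard error and points the single pairs (blue CD34, orange Mts24, darker for positive fractions). Cyp2g1 lies at -5.63 to -4.08 in 3 pairs and at -0.32 in the Mts24 positive pair, and no gene passed the adjusted threshold.

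The interaction asked whether the genotype difference was another one in positive than in negative fractions. None of the 23 tested members passed limma, nor did any of the 10720 tested genes (0.0%). An unadjusted p under 0.05 was found for 8 members and for 1060 of all tested genes. Cyp4f37 had the largest difference, 1.62 ± 0.30 (adjusted p = 0.208): K14Snail was higher by 1.12 in positive and lower in negative fractions (-0.49). Cyp2g1 was at 1.60 ± 1.68 (adjusted p = 0.815) and Cyp4f39 at -1.21 ± 0.40 (adjusted p = 0.419). These values turned on single pairs. Without either Mts24 positive array the interaction was -1.82 for Cyp4f39, 1.89 for Cyp4f37, 1.09 for Cyp27a1 and -1.36 for Cyp17a1. It was 4.26 for Cyp2g1 without either CD34 positive array. These members passed in those fits, and so did other tested genes, although 0 did with all arrays. The calls are thus not read as particular to these members. Such fits rest on 1 residual degree of freedom.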

How the data were processed

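RNA of 8 pools of sorted keratinocytes was measured on Affymetrix gene arrays, 1 per group. The authors deposited log2 values made with RMA, per the submitters' processing notes; its version and settings are not given in the sources used here. Array medians were 7.32 to 7.42, no arrays were identical, and the number of arrays limits the precision. Of 28874 probe sets, 21789 had 1 gene symbol, 1621 several and 5464 none; a gene was represented by its probe set with the highest mean. Genes with at least 2 of 8 arrays at 7.70 or above went into 1 linear model of fraction and genotype (limma 3.58.1, R 4.3.3), and p-values were adjusted by Benjamini-Hochberg over 10720 genes. The interaction had a further term. The fit was tested on simulated data. The labels do not say whether positive and negative fractions share mice, so the main fit has no pool block. Repeats are other fractions or the other genotype, so p-values measure the spread between these 8 arrays, which may be technical. Alternatives were the pool block, quantile normalization, median centring, no filter, a filter of 4 arrays, the mean of probe sets, a prior with trend, a robust prior, and each array or sort left out. Named members are those called in any comparison, the 5 largest differences in each, the 10 highest means and those differing 2-fold between genotypes in any fraction; pathway genes are called ones, at most 3 per list and comparison. The members and lists were chosen with earlier results of these data known. Other members, cell type lists and genes named outside this rule were chosen after their values were seen.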

Additional observations from a re-analysis of the deposited data

Results flagged for a closer look

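For 3 P450 genes the difference between positive and negative cells was itself different in the CD34 and the Mts24 sort, tested with limma over all tested genes. Cyp2d22 rose by 2.01 ± 0.19 more with CD34 than with Mts24 (adjusted p = 0.00832), and the call held in 15 of 16 alternatives (adjusted p 0.00647 to 0.05045). Cyp26b1 rose by 1.57 ± 0.27 more with CD34 (adjusted p = 0.0345), and the call held in 9 of 16 (0.0167 to 0.15). Cyp3a13 differed by -1.63 ± 0.25 (adjusted p = 0.0275), a larger fall with CD34, and the call held in 12 of 16 (0.0252 to 0.126). The CD34 and Mts24 arrays came from different pools, of 11 and 9 mice, so the marker and the pool cannot be told apart.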

How the results depend on the processing

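The counts of called members stayed within 1.5 times under every alternative that kept all 8 arrays. With 1 array left out they ranged from 10 to 16 for CD34 (13 with all arrays), from 6 to 12 for Mts24 (12), from 3 to 7 between the positive fractions (5), from 0 to 6 for the difference between the sorts (3) and from 0 to 4 for the interaction (0). The number of all tested genes called changed in these fits as well, so the ranges are not read as particular to the members. Without either Mts24 negative array both numbers fell for Mts24. The genotype count stayed at 0, also within each sort. With a pool block, 11 members were called for Mts24, and over all genes 220 for genotype in place of 41. The correlation within pools was estimated as negative in that fit, at -0.175. The larger genotype count is therefore not read as a gain from pairing. Of 759 alternative values of 47 member results, 367 with all arrays kept the direction and side of the threshold, 4 lost and 2 gained a call, and 0 reversed. With an array left out these numbers were 328, 44, 11 and 3. The reversals were in Cyp2g1: its interaction of 1.60 became -1.05 without either Mts24 positive array and 4.26 without either CD34 positive array, and its difference between positive fractions of 1.91 ranged from -0.40 without the wild type to 4.21 without the K14Snail Mts24 positive array. The calls lost with all arrays kept were Cyp17a1 in the Mts24 sort (adjusted p = 0.0728 with the pool block, 0.0502 with no filter, 0.0567 with the robust prior) and Cyp4f37 there (0.0536 with the robust prior). Cyp27a1 passed between the positive fractions with median centring (0.04997) and with a trend (0.0489). Median centring moved the split of all called genes from 1432 higher and 1436 lower to 1229 and 1820 for CD34, and from 1368 and 1448 to 1136 and 1677 for Mts24. The causes were not tested. The labels give no replicate numbers, so the pool block above, which ties the positive and negative fraction of each sort and genotype, was the only paired fit; it changed no other count of called members.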

Other observations

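Among the members not tested, Cyp7b1, an oxysterol hydroxylase, was brightest in the K14Snail positive fractions. It was at 6.94 in CD34 positive and 6.38 in Mts24 positive K14Snail cells and at 5.17 to 5.33 on the other 6 arrays. Cyp27b1 had its highest value, 7.69, in K14Snail CD34 positive cells, and was at 6.47 to 7.06 on the other arrays. Of 7 probe sets that carry several symbols with a Cyp among them and were left out, that of Cyp2a5 and Cyp2a4, in the same stretch of chromosome 7 as Cyp2g1, was at 6.42 to 6.89 in wild type and 5.94 to 6.22 in K14Snail arrays, without overlap.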
